A study of Homo sapiens with 30 samples.

Results

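The genes of the mitochondrial respiratory chain and ATP synthase were examined by RNA sequencing in MiaPaCa2 and PANC-1, both established cell lines of human pancreatic ductal adenocarcinoma. Members were taken from the table of all genes by their symbols, as the NDUFA, NDUFB, NDUFC, NDUFS and NDUFV genes, SDHA to SDHD, the UQCR genes, COX4 to COX8, the ATP5 genes and the protein-coding MT-ND, MT-CO, MT-CYB and MT-ATP genes. This gave 100 members of 24895 entries. Of these, 87 are encoded in the nucleus (38 of complex I, 4 of complex II, 9 of complex III, 17 of complex IV and 19 of complex V) and 13 in mitochondrial DNA (7, 0, 1, 3 and 2 in the same order). The readthrough entries ATP5MF-PTCD1 (0 to 0.378 FPKM) and NDUFC2-KCTD14 (0 to 3.22 FPKM) were left out.

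Each line received one of 5 siRNAs, namely siControl, siDDX60L, siMYEOV, siKCNN4 and siS100A16, the last 4 named for the gene they target, which gave 10 groups of 3 libraries and 30 libraries in all. Per the study's methods RNA was taken 48 hours after transfection, and no group was left untransfected. A small interfering RNA lowers transcripts that its guide strand matches. Each gene had a single siRNA group per line, so effects of an siRNA on its target and elsewhere cannot be told apart. The study's methods give 3 replicates per sample and say of its experiments in general that they were repeated independently, while the labels do not say whether the 3 libraries of a group came from separate cultures, so the p-values below measure the spread between these libraries.

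The respiratory chain passes electrons from NADH (complex I, NADH dehydrogenase) and succinate (complex II, succinate dehydrogenase) through ubiquinone, complex III and cytochrome c to oxygen at complex IV (cytochrome c oxidase), and the proton gradient built on the way drives ATP synthase (complex V). Complex II is made from nuclear genes alone, while the others combine nuclear subunits with a few core subunits that are translated inside the mitochondrion. Mitochondrial mRNAs are cut from long transcripts that a dedicated polymerase makes from both strands of the mitochondrial DNA, whereas nuclear subunit genes are transcribed one by one. Pancreatic ductal adenocarcinoma is known for heavy use of glycolysis, and its cells also keep a working respiratory chain.

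Values are FPKM (read fragments scaled by transcript length and by the number of mapped fragments). FPKM hold no read totals, so the absolute depth of each library is unknown and the counting error of a single value cannot be given. From the steps between low values, a depth relative to siControl replicate 1 of the same line could be estimated for 16 of 30 libraries, at 0.632 to 0.898 for 6 of MiaPaCa2 and 0.971 to 1.48 for 10 of PANC-1, and the lines cannot be set against each other on this scale. The FPKM of all entries had sums of 395879 to 416201 for MiaPaCa2 libraries and 375091 to 407738 for PANC-1 libraries. The targets were lower after their own siRNA: S100A16 went from 60.0-71.8 to 2.58-3.88 FPKM (MiaPaCa2) and from 36.7-39.7 to 6.35-7.54 FPKM (PANC-1), KCNN4 from 60.6-62.3 to 21.3-23.0 and from 14.2-16.5 to 6.39-7.78, and DDX60L from 1.70-2.24 to 0.187-0.233 and from 1.06-1.52 to 0.371-0.861. MYEOV went from 23.2-25.0 to 9.14-10.7 FPKM in PANC-1 but was near the floor in MiaPaCa2, at 0.691-0.985 under siControl and 0.155-0.190 after siMYEOV. Some targets also moved after other siRNAs. In PANC-1 MYEOV was at 13.5-15.6 FPKM after siDDX60L, 14.4-15.8 after siKCNN4 and 47.2-49.4 after siS100A16, and S100A16 at 92.2-114 after siKCNN4. DDX60L was at 3.88-5.42 (MiaPaCa2) and 3.21-3.82 FPKM (PANC-1) after siKCNN4. Ductal epithelial markers were present (5 of 5 above a mean of 1 FPKM in PANC-1 and 3 of 5 in MiaPaCa2, with summed levels of 1006 to 3384 and 579 to 2171 FPKM). Fibroblast markers summed to 6.19 to 12.9 FPKM (PANC-1) and 18.4 to 77.7 FPKM (MiaPaCa2) (5 of 6 and 4 of 6 below a mean of 1 FPKM), leukocyte markers to 30.3 to 85.8 and 9.63 to 22.8 (4 of 5 and 3 of 5 below), and endothelial markers to at most 0.142 and 3.40 (4 of 4 and 3 of 4 below). The part of other cells in the results was not tested, and in bulk RNA fewer cells of a kind and less RNA per cell cannot be told apart.

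The study's supplement lists sense sequences tested for 2 of the targets, and the ones its text says were carried forward are shown with their reverse complement, taken as the guide strand, because some of the largest falls were called after one siRNA alone. The labels do not name the sequence used for each library. Capitals mark bases 2 to 8 of each strand, the seed, which can also pair with transcripts that are not the target. The target genes lie on chromosomes 11 (MYEOV) and 4 (DDX60L).
siMYEOV, guide strand: cTGAACTTgcgtgtcctcc
siMYEOV, listed strand: gGAGGACAcgcaagttcag
siDDX60L, guide strand: aTGACTCGagaacaagctc
siDDX60L, listed strand: gAGCTTGTtctcgagtcat

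Under siControl the mitochondrial mRNAs were the most abundant members by far. In MiaPaCa2 the 13 mitochondrial mRNAs ranged from 776 (MT-ND3) to 8882 FPKM (MT-ND4L) and in PANC-1 from 833 to 11376 FPKM for the same genes. FPKM is scaled by transcript length, which makes levels of genes of unequal length comparable, although very short genes such as MT-ND4L are poorly measured on this scale. Among nuclear members at or above 1 FPKM, the median level was 33.3 FPKM for complex I, 63.3 for complex II, 50.5 for complex III, 80.0 for complex IV and 55.7 for complex V in MiaPaCa2, and 37.1, 69.1, 46.9, 92.9 and 69.2 in PANC-1. The highest nuclear member in both lines was ATP5F1B, the catalytic beta subunit of ATP synthase, with a mean of 400.1 FPKM in MiaPaCa2 and 412 in PANC-1.

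Most of the tissue-specific isoforms were at or near 0. COX4I2, COX6A2 and COX8C stayed below 0.35 FPKM in every library, and COX7A1, the heart and muscle isoform, and NDUFA4L2, a hypoxia-induced homologue of NDUFA4, stayed below 1. Their common counterparts were expressed: under siControl COX4I1 was at 193, 208 and 204 FPKM in MiaPaCa2 and 111, 126 and 105 in PANC-1, and COX6A1 at 211, 249 and 246 and at 328, 353 and 337. COX6B2, the testis isoform of COX6B1, was the exception and was expressed in one line, at 13.99, 15.9 and 15.9 FPKM in PANC-1 siControl libraries against 0.0551 to 0.299 FPKM over all 15 MiaPaCa2 libraries.

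**Figure D1:**
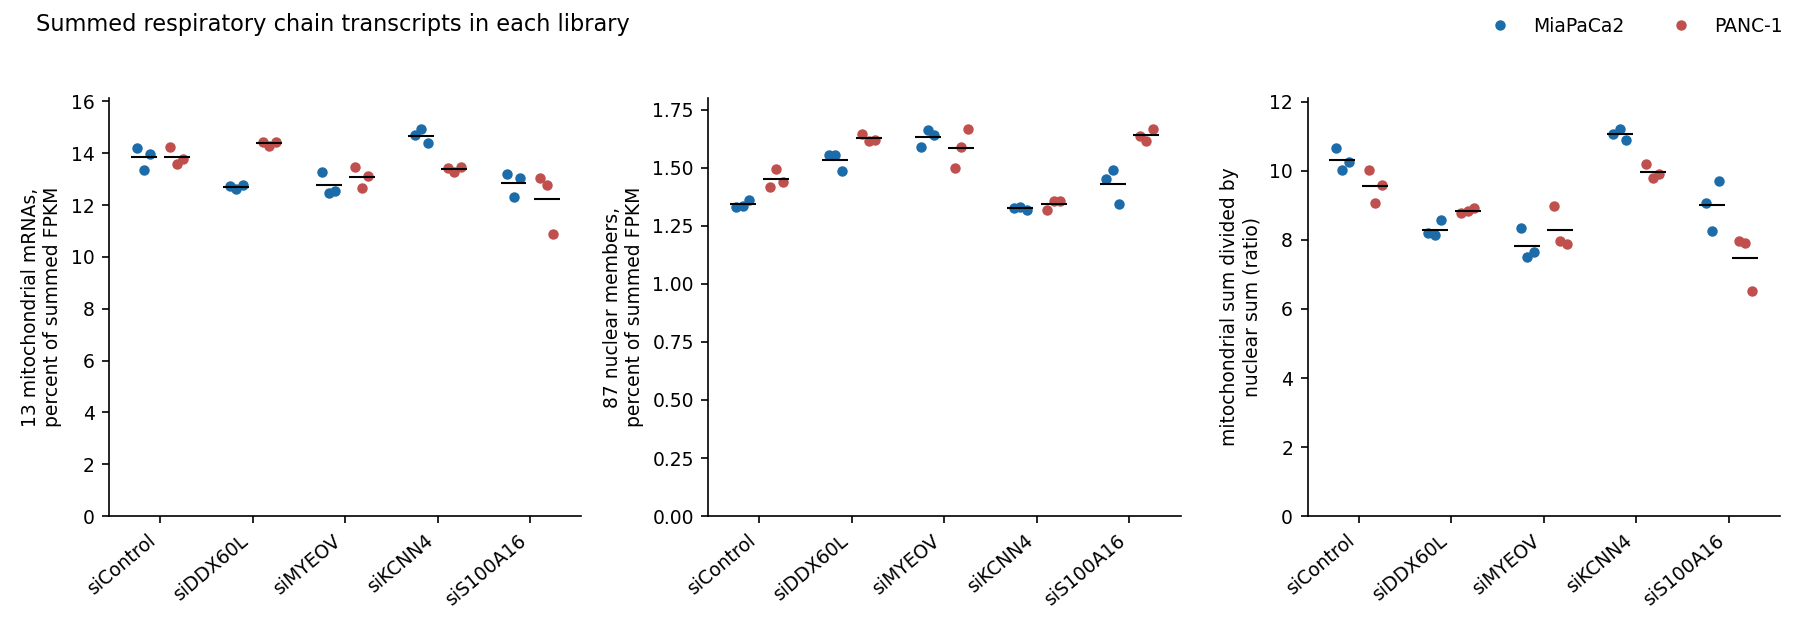
Summed respiratory chain transcripts in each of the 30 libraries (points), with group means (bars): the 13 mitochondrial mRNAs and the 87 nuclear members as percent of the summed FPKM of all entries, and the ratio of the former sum to the latter. Mitochondrial mRNAs took 12.3 to 14.9% in MiaPaCa2 and 10.9 to 14.4% in PANC-1. The ratio was lowest in PANC-1 siS100A16 replicate 3 (6.53, beside 7.98 and 7.91 in replicates 1 and 2).

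By genome of origin, the summed levels of nuclear and mitochondrial members parted in some groups and moved the same way in others. In PANC-1 both mean sums rose after siDDX60L (mitochondrial from 53898 to 57910 FPKM, nuclear from 5641 to 6548). Both fell there after siKCNN4, to 51486 and 5162 FPKM, but the mitochondrial fall was not shared by all 13 mRNAs. Their mean sums fell for complexes I (30209 to 27598.5 FPKM) and V (7426 to 4714) and rose for III (1995 to 2126) and IV (14268 to 17047). On the log2 scale 8 of the 13 lay above siControl and 5 below, MT-ATP6 furthest below. Of the summed FPKM, nuclear members took 1.32 to 1.66% in MiaPaCa2 libraries and 1.32 to 1.67% in PANC-1 libraries. The ratio of the mitochondrial to the nuclear sum was 10.02 to 10.7 under siControl in MiaPaCa2, 8.14 to 8.58 after siDDX60L, 7.49 to 8.35 after siMYEOV and 8.27 to 9.70 after siS100A16, and none of these groups overlapped siControl. After siKCNN4 it was 10.9 to 11.2, above siControl. In PANC-1 the ratio was 9.07 to 10.03 under siControl, 8.77 to 8.92 after siDDX60L, 7.89 to 8.98 after siMYEOV and 6.53 to 7.98 after siS100A16, again without overlap, and 9.80 to 10.2 after siKCNN4, which overlapped siControl. One PANC-1 siS100A16 library, replicate 3, had a lower mitochondrial sum (10.9% of FPKM) than the other libraries of that line. No test was run on these sums, and the siRNA groups of a line share one set of siControl libraries.

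Each siRNA was then compared with siControl gene by gene. Fold changes are differences in log2(FPKM + 1) ± SE from limma, adjusted p-values are by Benjamini-Hochberg over every gene tested in a comparison, and a gene was called when its adjusted p was below 0.05 and its log2 fold change at least 0.5 in size. Of the members, 92 passed the filter of a mean of 1 FPKM in MiaPaCa2 and 93 in PANC-1, where COX6B2 was added. After siMYEOV, 26 members rose and 1 fell in MiaPaCa2, against 16.3% of all tested genes higher and 10.4% lower, and 18 rose and 7 fell in PANC-1 (14.3% and 15.1% of all genes; 13 and 8 members when scaled to the nuclear total). After siDDX60L, 10 rose and 1 fell in MiaPaCa2 (all genes 8.77% and 7.28%) and 12 rose and 3 fell in PANC-1 (10.2% and 7.34%).

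After siKCNN4, 5 members rose and 2 fell in MiaPaCa2, where 16% of all genes were higher and 7.23% lower, and with median of ratios scaling the split was 2 and 5. In PANC-1, 7 rose and 10 fell after siKCNN4 (all genes 13.8% and 12.9%). After siS100A16, 3 rose and 2 fell in MiaPaCa2 (12.4% and 9.63%; 2 and 3 with median of ratios scaling), and 6 rose and 5 fell in PANC-1 (16.5% and 8.94%; 4 and 9). Median of ratios scaling moved the median log2 fold change of all genes by -0.13 for siKCNN4 in MiaPaCa2 and by -0.11 for siS100A16 in PANC-1.

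The median log2 fold change of the members was 0.36 after siMYEOV in MiaPaCa2, beside 0.11 over all genes tested, and 0.16 beside 0.04 in PANC-1. After siDDX60L it was 0.22 beside 0.05 and 0.23 beside 0.07. For siKCNN4 it was 0.10 beside 0.09 in MiaPaCa2 and -0.05 beside 0.02 in PANC-1, and for siS100A16 0.05 beside 0.04 and 0.10 beside 0.09. In MiaPaCa2 the nuclear and the mitochondrial members parted after siMYEOV (medians 0.40 and -0.06) and after siDDX60L (0.26 and -0.04). After siS100A16 the medians also had opposite signs, at 0.10 and -0.08 in MiaPaCa2 and 0.12 and -0.09 in PANC-1. In PANC-1 they were 0.16 and 0.14 after siMYEOV, 0.23 and 0.26 after siDDX60L and -0.07 and 0.02 after siKCNN4. The siMYEOV and siDDX60L medians kept their signs under both other scalings, as did those of siS100A16, though its nuclear median in PANC-1 came to 0.00 with median of ratios scaling, whereas the siKCNN4 medians of MiaPaCa2 (nuclear 0.09, mitochondrial 0.11) turned to -0.06 and -0.04 with median of ratios scaling.

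**Figure D2:**
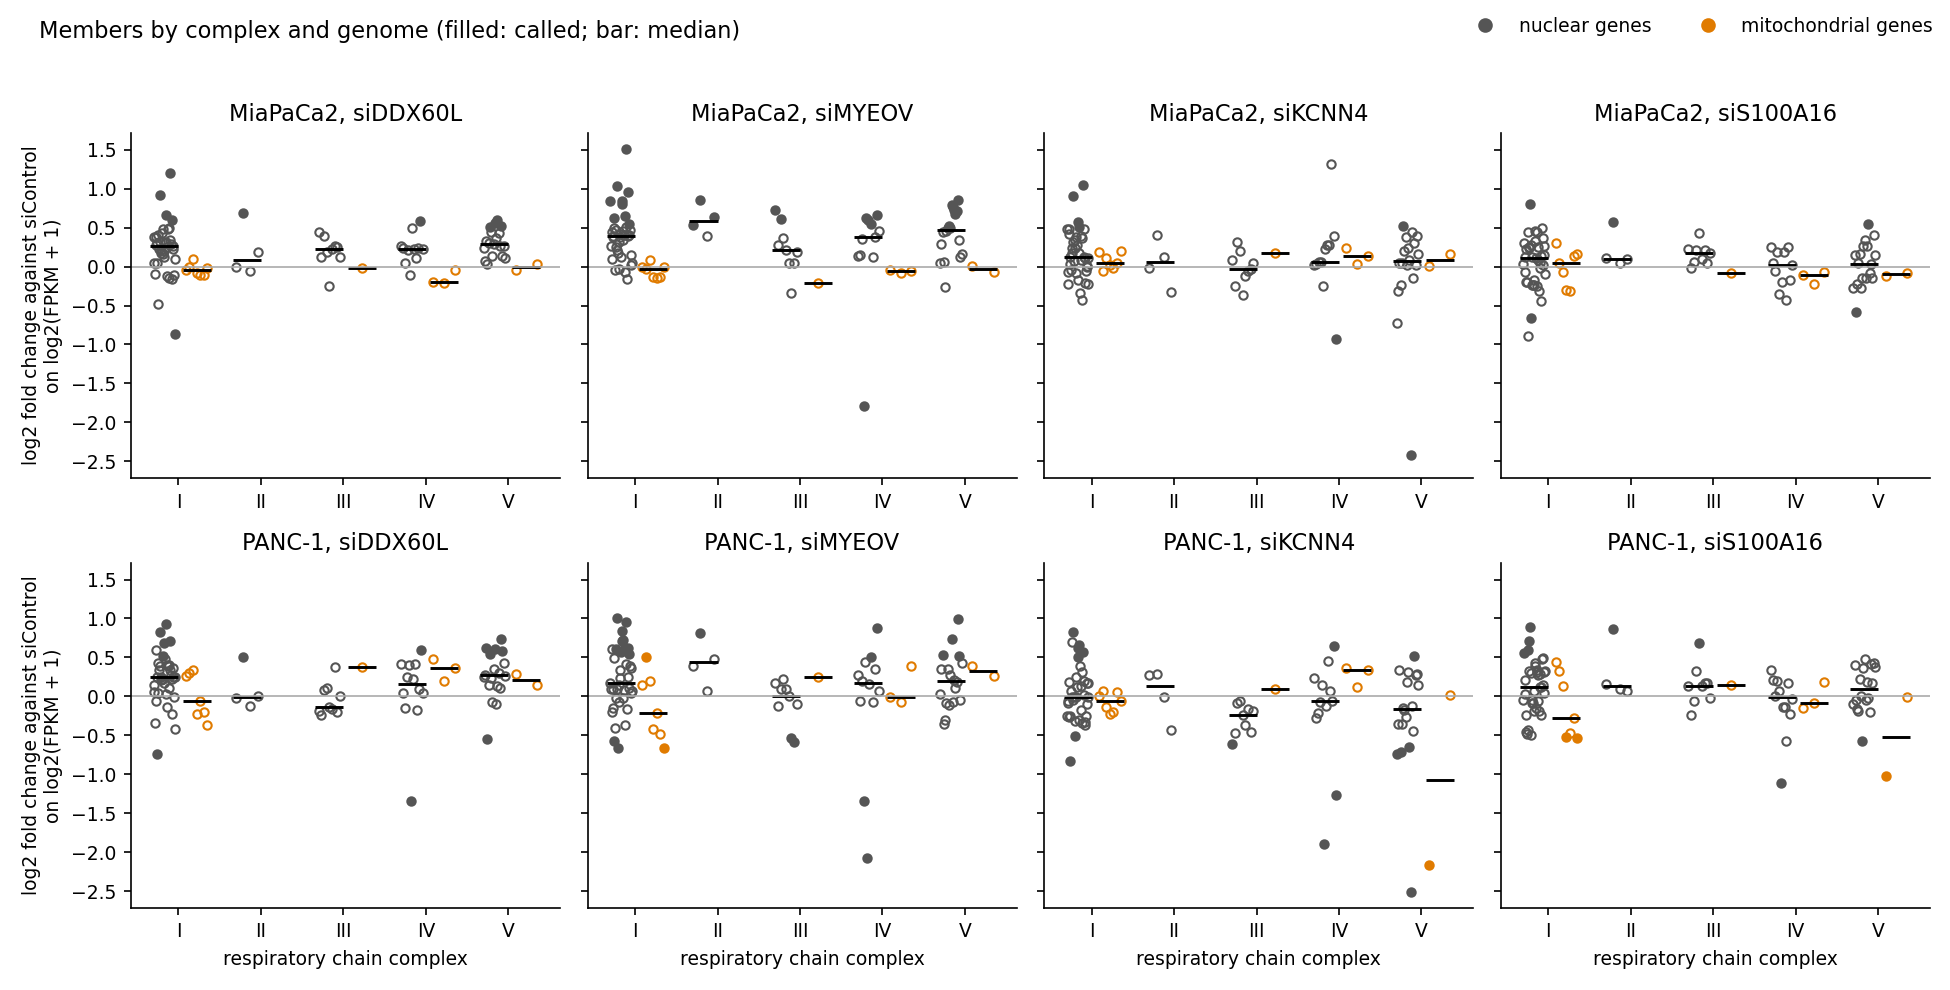
Log2 fold change against siControl of every tested member, by complex (horizontal axis), for each siRNA (columns) and line (rows). Grey points are nuclear and orange points mitochondrial genes, filled points were called and bars are medians. After siMYEOV in MiaPaCa2 the nuclear medians of all 5 complexes lay above 0 while no mitochondrial mRNA was called.

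By complex, nuclear members of complex III had rises in 1 of the 4 comparisons with siMYEOV and siDDX60L, and those of the other complexes in all 4. In these comparisons 8.77% to 16.3% of all genes were higher. Complexes II and III had 4 and 9 tested members, too few to tell 0 rises from that share, and the contrast between complexes was not tested. In MiaPaCa2, siMYEOV raised 9 of 37 nuclear members of complex I, 3 of 4 of complex II, 2 of 9 of complex III, 4 of 11 of complex IV and 8 of 18 of complex V. Of all genes, 16.3% were higher in that comparison. In PANC-1 the same siRNA raised 10 of 37, 1 of 4, 0 of 9, 2 of 12 and 4 of 18, and lowered 2, 0, 2, 2 and 0 (all genes 14.3% higher and 15.1% lower). After siDDX60L the rises were 4, 1, 0, 1 and 4 in MiaPaCa2 (all genes 8.77%) and 5, 1, 0, 1 and 5 in PANC-1 (10.2%). After siKCNN4 in PANC-1, complex V had 4 of 18 nuclear members lower and 1 higher, where 12.9% of all genes were lower and 13.8% higher. All 9 nuclear members of complex III had negative log2 fold changes there, from -0.61 to -0.06, of which UQCR10 alone was called.

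Of the 93 tested members, 50 were called in at least 1 of the 8 siRNA comparisons and 43 in none, while 71% of all 13304 genes tested were called at least once. Higher calls involved 37 members and lower calls 18, while 45.3% of all genes were higher and 36.4% lower at least once. In different comparisons 5 members (ATP5F1C, ATP5MC2, ATP5ME, ATP5MF and UQCR10) were called in both directions, as were 10.7% of all genes. No member (0 of 92 tested in both) was called in opposite directions in the 2 lines after the same siRNA, and 99 of 11084 genes tested in both lines (0.893%) were for at least 1 siRNA. Since the 4 siRNA groups of a line were each compared with the same 3 siControl libraries, repeated calls of one gene within a line are not independent of each other.

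In complex I, NDUFA8, an accessory subunit with paired cysteine motifs, was higher after all 4 siRNAs in both lines. Its siControl libraries held 31.0, 29.2 and 28.7 FPKM in MiaPaCa2, against 61.0, 54.6 and 55.7 after siDDX60L, 61.1, 61.8 and 62.7 after siMYEOV, 56.9, 56.8 and 55.8 after siKCNN4, and 55.8, 56.5 and 45.3 after siS100A16. PANC-1 held 17.4, 15.998 and 17.4 FPKM under siControl, and the 12 libraries with a targeting siRNA ranged from 29.1 to 35.9. In neither line did any library of a targeting siRNA reach down to the siControl range. The log2 fold changes were 0.92 ± 0.07, 1.04 ± 0.07, 0.91 ± 0.07 and 0.80 ± 0.07 for siDDX60L, siMYEOV, siKCNN4 and siS100A16 in MiaPaCa2 (limma adjusted p from 8.4e-08 to 1.1e-06) and 0.83, 1.01, 0.83 and 0.89 (each ± 0.05) in PANC-1 (5.8e-09 to 8.1e-08).

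NDUFB6, an accessory subunit of the membrane arm, started lower in MiaPaCa2 (7.48, 7.44 and 7.23 FPKM) than in PANC-1 (17.6, 19.2 and 15.3). It was at 14.1, 11.3 and 11.4 after siDDX60L and 12.9, 15.9 and 13.5 after siMYEOV in MiaPaCa2, and at 30.2, 37.5 and 34.1 and 28.9, 31.1 and 27.3 in PANC-1. Neither group overlapped siControl in either line. These changes were 0.66 ± 0.12 and 0.84 ± 0.12 on the log2 scale in MiaPaCa2 and 0.93 ± 0.10 and 0.72 ± 0.10 in PANC-1, and siKCNN4 gave 0.51 ± 0.12 and 0.66 ± 0.10, all called by limma. The siKCNN4 call in MiaPaCa2 was lost without siControl replicate 3 or siKCNN4 replicate 1, with values down to 0.41.

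NDUFB5, another membrane arm subunit, was called higher after siMYEOV (0.80 ± 0.08 in MiaPaCa2, 0.85 ± 0.09 in PANC-1) and after siKCNN4 (0.58 ± 0.08, which was 0.49 and not called without siKCNN4 replicate 2, and 0.62 ± 0.09). NDUFS4, whose loss causes Leigh syndrome, was at 27.2, 26.6 and 27.4 FPKM under siControl and 51.0, 56.3 and 53.1 after siMYEOV in MiaPaCa2 (0.95 ± 0.10), and it also rose after siMYEOV in PANC-1 (0.62 ± 0.12). NDUFC1 rose after siMYEOV by 0.65 ± 0.11 and 0.62 ± 0.12. NDUFB4 was called higher in PANC-1 comparisons, by 0.68 ± 0.07 after siDDX60L, 0.58 ± 0.07 after siMYEOV and 0.51 ± 0.07 after siKCNN4, and the last call was lost without siControl replicate 3 or siKCNN4 replicate 3. After siS100A16 in PANC-1, NDUFA6 (0.72 ± 0.18) and NDUFA4 (0.59 ± 0.07) were also called higher. Structural work now places NDUFA4 in complex IV, but by its symbol it is counted in complex I throughout, as is NDUFA4L2.

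Fewer complex I genes fell. NDUFV3, a subunit of the NADH-oxidising module, was at 26.8, 26.6 and 27.8 FPKM under siControl and 16.1, 13.8 and 13.6 after siDDX60L in MiaPaCa2 (-0.86 ± 0.06, limma adjusted p = 7.9e-08). In PANC-1, where it was at 8.26, 8.44 and 9.18 FPKM, the siDDX60L libraries held 6.46, 6.24 and 5.92 (-0.42 ± 0.08), also below siControl but short of the fold threshold. NDUFA3 fell in PANC-1 after siKCNN4 (-0.82 ± 0.15), siDDX60L (-0.74 ± 0.15) and siMYEOV (-0.57 ± 0.15), from 52.6, 55.2 and 51.4 FPKM to 26.6 to 46.7. In MiaPaCa2, NDUFA3 was not called, and its siControl libraries were spread over 25.9, 16.6 and 16.2 FPKM. The siMYEOV call of NDUFA3 in PANC-1 was lost without siMYEOV replicate 1, at -0.40.

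NDUFB1, a small membrane arm subunit, fell after siS100A16 in MiaPaCa2 (-0.66 ± 0.14) and after siMYEOV (-0.66 ± 0.10) and siKCNN4 (-0.51 ± 0.10) in PANC-1. The MiaPaCa2 libraries were at 22.4, 20.9 and 18.6 FPKM under siControl and 13.5, 15.2 and 9.79 after siS100A16. Without siS100A16 replicate 3, the lowest of them, the value was -0.50 and no longer called.

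In complex II, SDHB, the iron-sulphur subunit, was the member that moved most. It was at 70.8, 74.2 and 73.5 FPKM under siControl in MiaPaCa2 and at 118, 119 and 117 after siDDX60L, 126, 131 and 139 after siMYEOV, 99.5, 97.4 and 92.6 after siKCNN4 and 113, 105 and 110 after siS100A16. In PANC-1 it was at 74.6, 71.6 and 75.2 FPKM under siControl, then 111, 105 and 99.9, 130, 129 and 131, 89.3, 91.2 and 89.9, and 134, 133 and 138. All 24 libraries with a targeting siRNA lay above all 6 siControl libraries. On the log2 scale the changes were 0.69 ± 0.04, 0.85 ± 0.04 and 0.58 ± 0.04 for siDDX60L, siMYEOV and siS100A16 in MiaPaCa2 (limma adjusted p from 6.2e-09 to 2.6e-07) and 0.51 ± 0.04, 0.81 ± 0.04 and 0.87 ± 0.04 in PANC-1 (2.8e-09 to 5.3e-07). After siKCNN4 they were 0.40 ± 0.04 and 0.28 ± 0.04, with adjusted p of 6.9e-06 and 4.4e-05 but below the fold threshold.

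The other complex II genes moved after fewer siRNAs. SDHD, a membrane anchor, rose after siMYEOV in MiaPaCa2 from 54.9, 53.5 and 52.8 to 78.7, 93.9 and 81.2 FPKM (0.64 ± 0.06), and was at 0.49 ± 0.06 in PANC-1, just short of the fold threshold. SDHA, the flavoprotein that oxidises succinate, rose after siMYEOV in MiaPaCa2 from 106, 121 and 112 to 163, 165 and 162 FPKM (0.53 ± 0.05) and was at 0.38 ± 0.05 in PANC-1. The siDDX60L call of SDHB in PANC-1 was lost without siControl replicate 2 or siDDX60L replicate 1 (0.47 to 0.48). SDHC, the second anchor, was called in no comparison, and one PANC-1 siControl library (28.4 FPKM, replicate 2) stood apart from the others (12.7 and 12.01). SDHA and SDHD were named after their values were seen, as the rest of the complex.

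Of the 9 nuclear members of complex III, 2 rose in MiaPaCa2, both after siMYEOV, and the 3 falls were in PANC-1. UQCRH, the hinge protein that binds cytochrome c1, was called lower after siMYEOV in PANC-1 alone, at 180, 181 and 180 FPKM against 240, 222 and 224 under siControl in MiaPaCa2 (-0.34 ± 0.06, not called) and at 174, 196 and 202 against 274, 274 and 276 in PANC-1 (-0.53 ± 0.05, limma adjusted p = 1.9e-06). The siMYEOV means were 79.0% and 69.4% of siControl. UQCRHL, a near-identical copy of UQCRH listed at 0.73 to 2.59 FPKM, was called lower with it in PANC-1 (-0.58 ± 0.13), and reads of the pair cannot be told apart with certainty. UQCRC2, a core protein, rose after siS100A16 in PANC-1 from 67.2, 72.6 and 71.9 to 126, 124 and 95.96 FPKM (0.69 ± 0.12). UQCR10 rose after siMYEOV in MiaPaCa2 (0.72 ± 0.09) and fell after siKCNN4 in PANC-1 (-0.61 ± 0.09).

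In complex IV the largest called changes were falls, and those of COX6A1 and COX8A were called after a single siRNA in both lines. COX6A1, the widely expressed form of subunit 6A, was at 211, 249 and 246 FPKM under siControl and 58.4, 73.7 and 70.6 after siMYEOV in MiaPaCa2, and at 328, 353 and 337 and 121, 132 and 146 in PANC-1. The siMYEOV means were 28.7% and 39.3% of siControl, and no library of another group reached down to them. In log2 terms the falls were -1.79 ± 0.08 (limma adjusted p = 1.6e-09) and -1.35 ± 0.08 (1.2e-08), while those of the other siRNAs lay between -0.07 and 0.24, none called.

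COX8A, the common form of subunit 8, fell after siKCNN4. It was at 217, 229 and 226 FPKM under siControl and 115, 121 and 116 after siKCNN4 in MiaPaCa2, and at 311, 347 and 330 and 132, 136 and 139 in PANC-1, or 52.3% and 41.2% of siControl. Both falls were called, at -0.93 ± 0.05 (limma adjusted p = 7.8e-09) and -1.27 ± 0.07 (6.8e-09). None of the other siRNAs gave a call for COX8A, with values from -0.04 to 0.45.

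COX7C, the subunit 7C, was among the risers, after siMYEOV (0.66 ± 0.21 and 0.88 ± 0.19), siDDX60L (0.59 ± 0.21 and 0.60 ± 0.19) and, in PANC-1, siKCNN4 (0.64 ± 0.19). Its libraries varied within groups, at 75.9, 99.9 and 97.3 FPKM under siControl in MiaPaCa2 against 165, 151 and 101 after siDDX60L, and in PANC-1 the siDDX60L group overlapped siControl. Leaving out single libraries ended both siDDX60L calls, with values of 0.45 to 0.64 in MiaPaCa2 (siControl replicate 1 or 3 or siDDX60L replicate 1 or 2 left out) and 0.43 to 0.52 in PANC-1 (siControl replicate 2 or 3 or siDDX60L replicate 1 left out). The siMYEOV call in MiaPaCa2 was likewise lost without siControl replicate 1 or siMYEOV replicate 2 (0.51 to 0.53).

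COX6B1, which docks cytochrome c, reached 0.63 ± 0.21 after siMYEOV in MiaPaCa2 with groups that overlapped (69.4, 69.7 and 101 FPKM under siControl; 107, 184 and 92.6 after siMYEOV), and the call was lost when siMYEOV replicate 2 or siControl replicate 1 or 2 was left out (down to 0.33). COX7A2, called after siMYEOV in both lines (0.55 ± 0.18 and 0.51 ± 0.14), lost each call on leaving out any of 3 libraries: siControl replicates 1 and 2 and siMYEOV replicate 2 in MiaPaCa2 (0.40 to 0.47), and siControl replicate 1 and siMYEOV replicates 2 and 3 in PANC-1 (0.45 to 0.47).

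COX6B2 was lower after every siRNA in PANC-1. From 13.99, 15.9 and 15.9 FPKM under siControl it was at 5.80, 5.21 and 5.25 after siDDX60L, 3.07, 2.68 and 2.83 after siMYEOV, 3.21, 3.33 and 3.56 after siKCNN4 and 7.15, 6.05 and 6.44 after siS100A16. No library with a targeting siRNA reached the siControl range. The log2 fold changes were -1.34, -2.07, -1.89 and -1.11, each ± 0.07, with limma adjusted p from 2.1e-10 to 6.3e-08. COX6B1 in the same libraries was not called, at 106, 112 and 106 FPKM under siControl and 110 to 164 in the other groups.

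**Figure D3:**
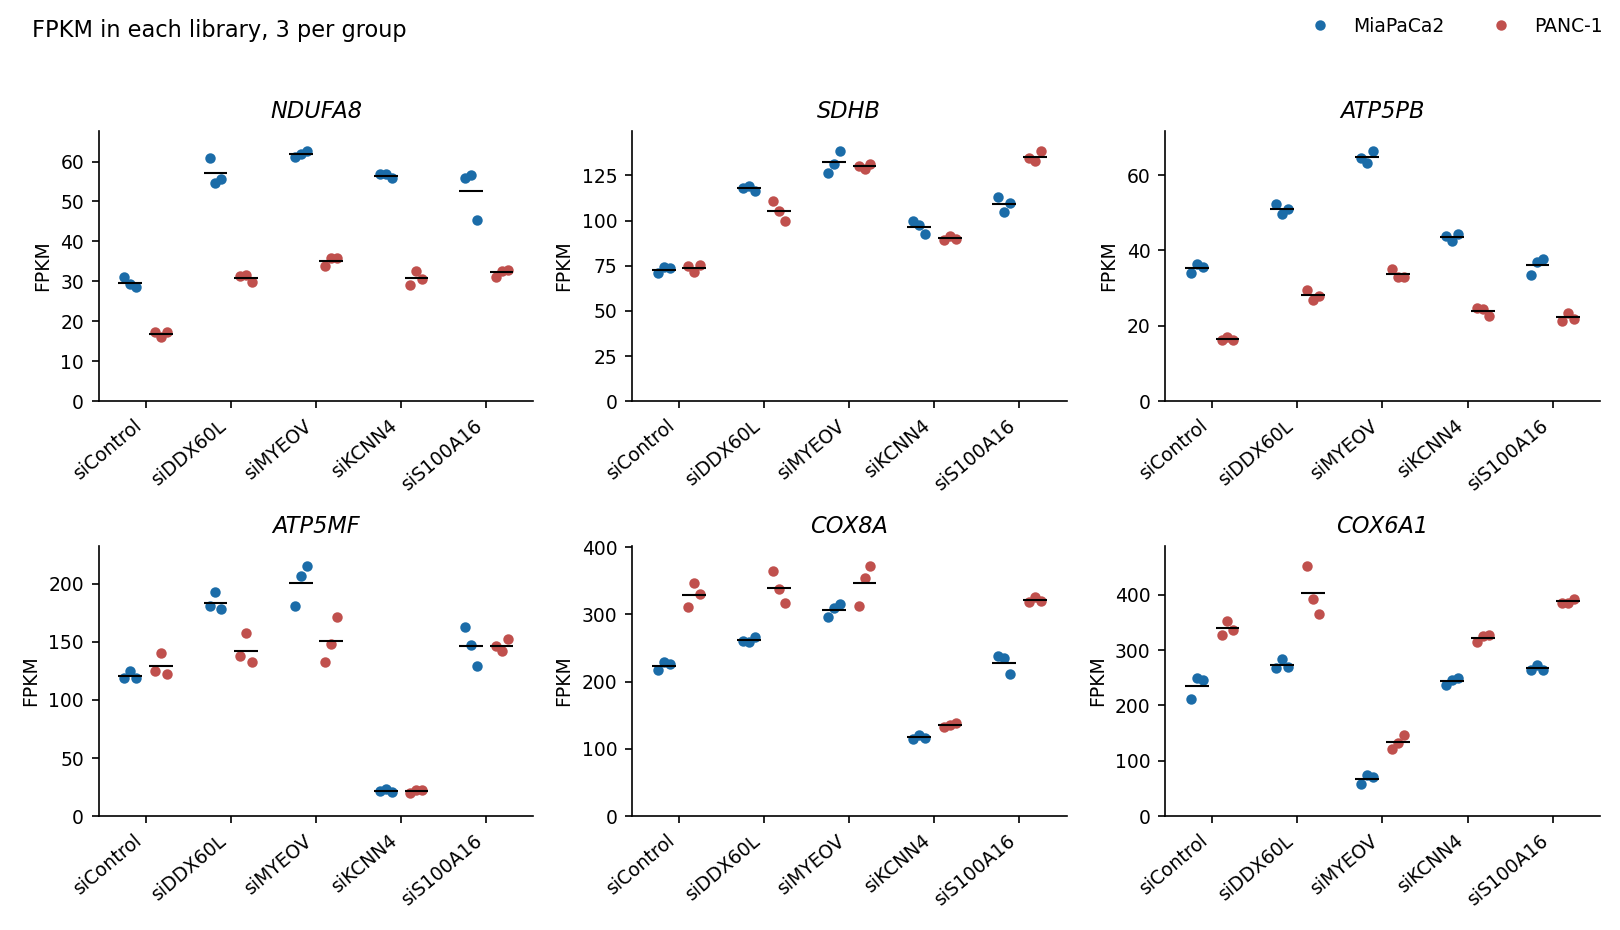
FPKM of 6 members in every library (points, 3 per group, bars are means) by siRNA group. NDUFA8 lay above siControl after every targeting siRNA, so did SDHB, and ATP5PB did in PANC-1, while ATP5MF and COX8A fell after siKCNN4 and COX6A1 after siMYEOV in both lines.

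In complex V, ATP5MF, the f subunit of the membrane part of ATP synthase, fell further than any other nuclear member. It was at 119, 125 and 119 FPKM under siControl and 21.3, 23.2 and 20.9 after siKCNN4 in MiaPaCa2, and at 125, 141 and 122 and 20.1, 22.8 and 22.5 in PANC-1. The siKCNN4 means were 18.1% and 16.9% of siControl, with no overlap. The log2 fold changes were -2.42 ± 0.08 and -2.51 ± 0.09 (limma adjusted p = 3.8e-10 in each). After siDDX60L and siMYEOV in MiaPaCa2, ATP5MF rose instead, by 0.60 ± 0.08 and 0.73 ± 0.08.

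The b subunit of the peripheral stalk, ATP5PB, was among the steadiest risers. In PANC-1 it was at 16.2, 16.96 and 16.2 FPKM under siControl, 29.5, 26.8 and 27.9 after siDDX60L, 35.1, 32.9 and 33.0 after siMYEOV, 24.8, 24.4 and 22.6 after siKCNN4 and 21.3, 23.5 and 21.9 after siS100A16. All 4 groups lay above siControl, and the first 3 were called (0.74, 0.99 and 0.52, each ± 0.05), while siS100A16 gave 0.41 ± 0.05. In MiaPaCa2 it was called after siMYEOV (0.86 ± 0.05, limma adjusted p = 9.4e-09) and siDDX60L (0.52 ± 0.05), the latter lost without siControl replicate 1 or siDDX60L replicate 1 (0.49 to 0.50). The siKCNN4 call in PANC-1 was lost without siKCNN4 replicate 1, at 0.49.

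ATP5MD, a small subunit also known as DAPIT, was called higher after siDDX60L (0.56 ± 0.10 and 0.60 ± 0.10) and siMYEOV (0.79 ± 0.10 and 0.74 ± 0.10) in both lines. ATP5IF1, the inhibitor that blocks ATP hydrolysis by the enzyme, rose after siDDX60L in both lines (0.51 ± 0.08 and 0.54 ± 0.08) and after siKCNN4 in MiaPaCa2 (0.52 ± 0.08). Each of these 3 calls lay close to the threshold and was lost when a library was left out: siDDX60L replicate 1 or 2 in MiaPaCa2, siControl replicate 1 in PANC-1, and siKCNN4 replicate 1 in MiaPaCa2, with values from 0.48 to 0.49. ATP5MG rose after siS100A16 in MiaPaCa2 (0.55 ± 0.08; 0.48 and not called without siControl replicate 2).

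ATP5F1C, the gamma subunit of the rotor, was called lower in MiaPaCa2 and higher in PANC-1, after different siRNAs. It was at 102, 107 and 108 FPKM under siControl and 67.4, 73.4 and 70.0 after siS100A16 in MiaPaCa2 (-0.58 ± 0.05, limma adjusted p = 3.9e-07). In PANC-1 it rose from 63.2, 55.2 and 58.7 to 83.6, 101 and 89.6 FPKM after siDDX60L (0.62 ± 0.07), and its siS100A16 libraries overlapped siControl. ATP5F1D, the delta subunit, fell in PANC-1 after siDDX60L (-0.55 ± 0.12) and siKCNN4 (-0.72 ± 0.12).

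The c subunit of the rotor ring is encoded by ATP5MC1, ATP5MC2 and ATP5MC3, which give the same mature protein. Under siControl MiaPaCa2 held 49.3, 53.9 and 55.9 FPKM of ATP5MC1, 51.0, 54.9 and 48.3 of ATP5MC2 and 33.5, 33.6 and 32.4 of ATP5MC3, and PANC-1 held 106, 108 and 101, 111, 113 and 104, and 21.1, 23.7 and 23.6. ATP5MC1 and ATP5MC2 were each at about the same level within a line, and ATP5MC3 was the lowest in both. After siMYEOV in MiaPaCa2, ATP5MC1 (0.50 ± 0.08) and ATP5MC2 (0.53 ± 0.13) were called higher and ATP5MC3 was at 0.49 ± 0.09. Both calls were lost when 1 of 2 libraries was left out (siControl replicate 1 or siMYEOV replicate 2 for ATP5MC1, 0.44 to 0.45; siControl replicate 3 or siMYEOV replicate 1 for ATP5MC2, 0.41 to 0.48). ATP5MC2 alone fell after siS100A16 in PANC-1, to 75.9, 72.3 and 71.7 FPKM (-0.57 ± 0.07, limma adjusted p = 1.3e-05), beside 0.01 ± 0.08 for ATP5MC1 and 0.36 ± 0.08 for ATP5MC3.

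The 13 mitochondrial mRNAs gave 0 calls by limma in 52 tests over the 4 siRNA comparisons of MiaPaCa2, where nuclear members gave 54 in 316 (17.1%) and all genes were called in 22% of tests. In PANC-1 they gave 6 calls in 52 tests (11.5%), nuclear members 62 in 320 (19.4%) and all genes 24.8%. The MiaPaCa2 log2 fold changes of all 13 lay between -0.31 (MT-ND4L after siS100A16) and 0.30 (MT-ND1 after siS100A16). Of these MiaPaCa2 tests, 12 had an unadjusted and 10 an adjusted p below 0.05 with folds under the threshold, such as MT-CO2 after siDDX60L (-0.21 ± 0.05, adjusted p = 0.0028) and MT-ND4 after siS100A16 (-0.30 ± 0.05, 0.00014).

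In PANC-1 the mRNAs of complex I parted among themselves. After siMYEOV, MT-ND2 was higher, at 2973, 2716 and 2749 FPKM against 2059, 1943 and 1949 (0.50 ± 0.07), and MT-ND6 lower, at 1705, 1651 and 1772 against 2946, 2526 and 2684 (-0.67 ± 0.10, limma adjusted p = 8.4e-05). MT-ND4 and MT-ND5 were also lower, at -0.42 ± 0.06 and -0.48 ± 0.10, short of the fold threshold. After siS100A16, MT-ND6 (-0.54 ± 0.10) and MT-ND4 (-0.53 ± 0.06) were called lower and MT-ND4L was at -0.46 ± 0.06, while MT-ND1 was at 0.44 ± 0.14.

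Single libraries decided several of these calls. The siMYEOV call of MT-ND2 was lost without siControl replicate 2 or 3 or siMYEOV replicate 1 (0.46 to 0.49). The siS100A16 calls were lost without siS100A16 replicate 3, at -0.46 for MT-ND4 and -0.42 for MT-ND6, and the latter also without siControl replicate 1 (-0.48). MT-ND6 is the only mRNA encoded on the light strand, and since it is not given whether strand was used in the FPKM, its own transcript cannot be told apart from heavy-strand RNA of the same stretch.

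MT-CO1, MT-CO2 and MT-CO3, the core of complex IV, and MT-CYB of complex III were called in no siRNA comparison. Their highest values were in PANC-1, at 0.47 ± 0.05 for MT-CO1 and 0.38 ± 0.07 for MT-CYB after siDDX60L and 0.39 ± 0.06 for MT-CO3 after siMYEOV, and MT-CO1 was at 7331, 7556 and 7580 FPKM after siDDX60L against 5668, 5237 and 5275 under siControl. MT-ND3 lay between -0.13 and 0.33 and MT-ND1 between -0.04 and 0.44 over the 8 comparisons.

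MT-ATP6, subunit a of ATP synthase, had the largest change of a mitochondrial mRNA. In PANC-1 it was at 3619, 3537 and 3504 FPKM under siControl and 806, 780 and 792 after siKCNN4 (-2.16 ± 0.39, limma adjusted p = 0.00037), with all 3 libraries together and far below. After siS100A16 it was at 2725, 2868 and 679 FPKM (-1.03 ± 0.39, adjusted p = 0.038), so that 1 library of 3 carried most of the difference, and the call was lost without that library (-0.35) or without any one of the siControl libraries (values down to -1.04). In MiaPaCa2 the 15 libraries lay between 1037 and 1320 FPKM and no siRNA moved it. MT-ATP8, whose gene overlaps MT-ATP6 by 46 bases on the mitochondrial genome in the GRCh37 annotation (MT-ATP8 from 8366 to 8572, MT-ATP6 from 8527 to 9207) and shares its mRNA, was at 3924, 3776 and 3919 FPKM under siControl and 3939, 3823 and 4002 after siKCNN4 in PANC-1 (0.02 ± 0.07). How the overlap was treated in the FPKM is not given, and its part in the MT-ATP6 values was not tested. MT-ND4L and MT-ND4 overlap by 7 bases in the same way.

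Other members had single libraries far from the rest of their group. Over the groups of tested members, 18 of 924 had a highest library more than 2 times the lowest, or 1.95%, beside 3.56% for other genes. COX7B, subunit 7B, was at 19.0, 156 and 15.7 FPKM in the MiaPaCa2 siKCNN4 group (1.32 ± 0.60, limma adjusted p = 0.082, not called). ATP5F1A, the alpha subunit, was at 231, 89.3 and 250 FPKM after siKCNN4 in MiaPaCa2 (-0.73 ± 0.30, adjusted p = 0.057) and at 91.6, 91.3 and 38.6 in PANC-1 (-0.73 ± 0.24, 0.017, called), against 115, 114 and 115 in its siControl. NDUFA5 exceeded the factor in 6 of the 10 groups, for example at 21.0, 9.35 and 18.5 FPKM under siControl in PANC-1. COX7B and NDUFA5, which were not called, are described for their spread, chosen after their values were seen.

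**Figure D4:**
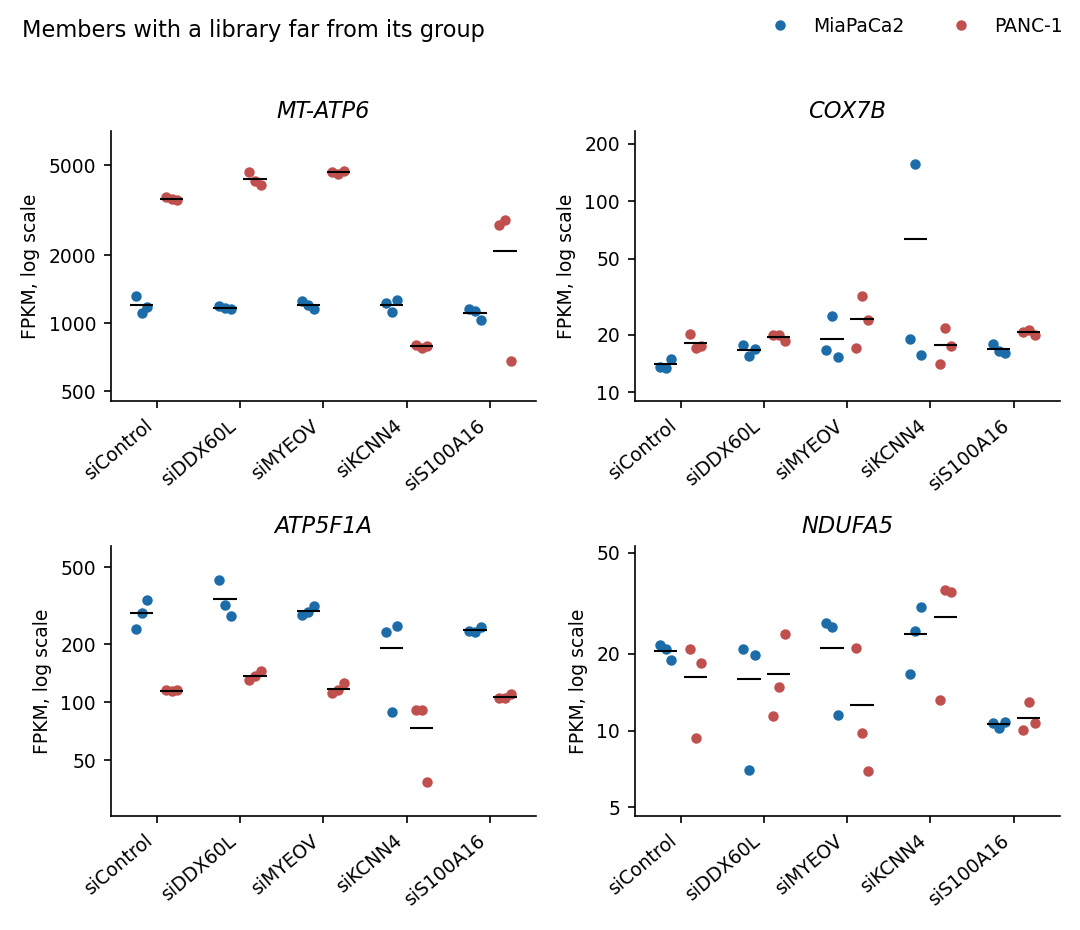
FPKM (log scale) of 4 members with libraries that differed within a group, in every library (points, bars are means). MT-ATP6 was low in all 3 PANC-1 siKCNN4 libraries but in 1 of 3 siS100A16 libraries (679 FPKM), and COX7B was high in 1 MiaPaCa2 siKCNN4 library (156 FPKM).

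The lines themselves were compared under siControl. Of 92 members tested in both, 19 were higher in PANC-1 (25.9% of all 11084 genes were) and 18 lower (23.2%). NDUFV3 was the lowest relative to MiaPaCa2, at 8.26, 8.44 and 9.18 against 26.8, 26.6 and 27.8 FPKM (-1.55 ± 0.07), followed by ATP5F1A (-1.31 ± 0.28), MT-CO3 (-1.31 ± 0.05), NDUFB11 (-1.24 ± 0.05), ATP5PO (-1.06 ± 0.11) and ATP5PB (-1.06 ± 0.05). Higher in PANC-1 were MT-ND6 (1.68 ± 0.10), MT-ATP6 (1.56 ± 0.29), UQCRB (1.56 ± 0.10), ATP5MG (1.46 ± 0.08), NDUFA3 (1.42 ± 0.16) and NDUFA1 (1.32 ± 0.16). The limma adjusted p of these 12 ran from 3.9e-17 to 0.00024.

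Mitochondrial mRNAs differed between the lines in both directions. MT-CO3 was at 6908, 6442 and 6902 FPKM in MiaPaCa2 and 2797, 2708 and 2665 in PANC-1, MT-ND6 at 848, 901 and 794 and 2946, 2526 and 2684. Lower in PANC-1 were also MT-ND2 (-0.86 ± 0.06), MT-ATP8 (-0.71 ± 0.08) and MT-ND1 (-0.64 ± 0.15), and MT-ND5 was higher (0.96 ± 0.09). By complex, the 11 nuclear members of complex IV had a median difference of 0.45, with 5 called higher in PANC-1 and 1 lower (all genes 25.9% and 23.2%). Those of complexes I, II, III and V had medians of 0.01, -0.10, 0.16 and 0.13.

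**Figure D5:**
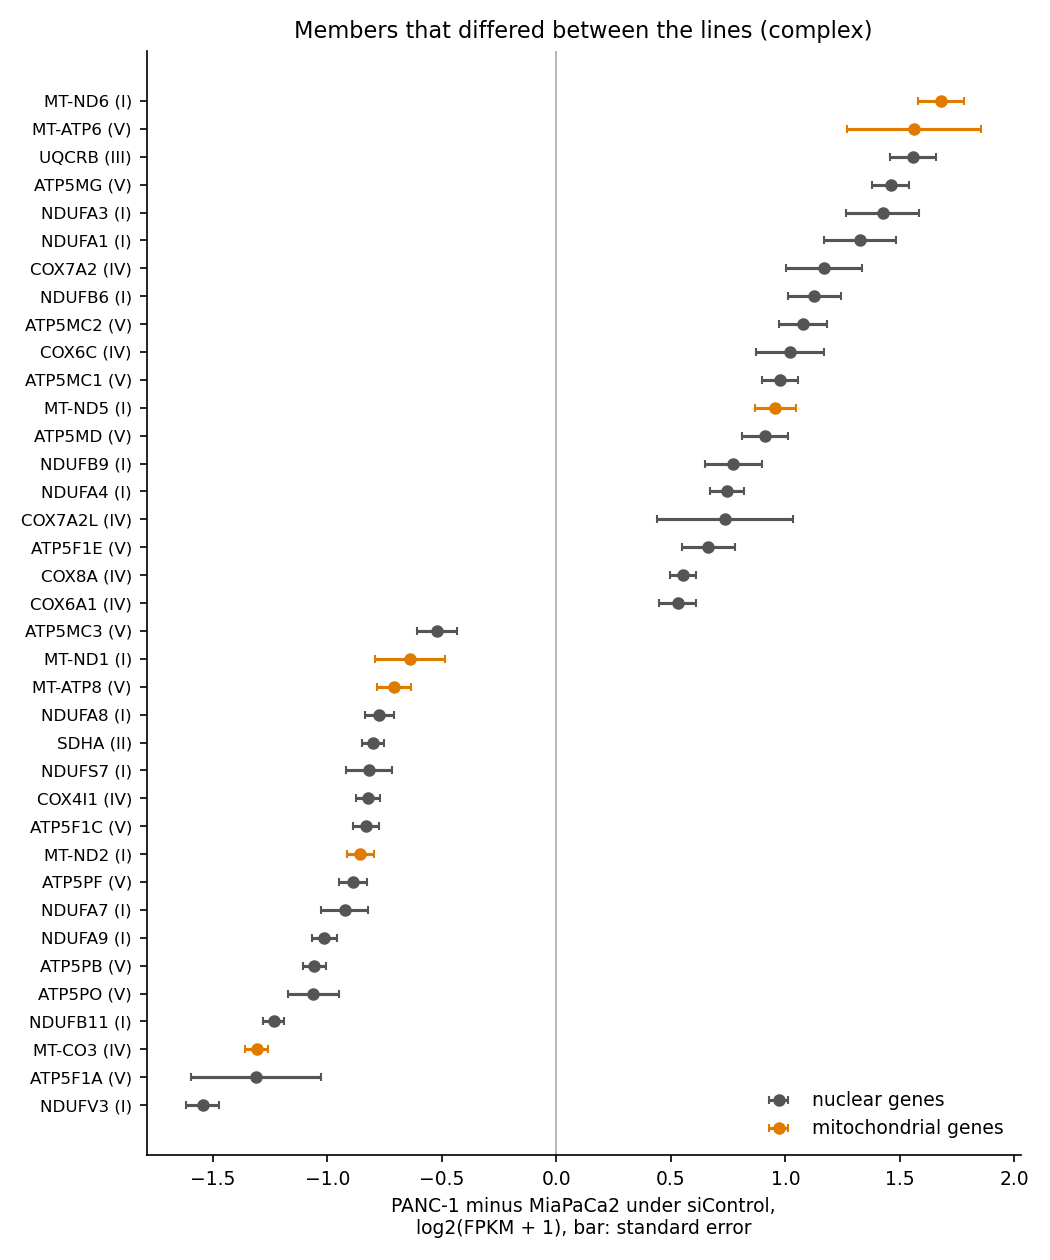
The 37 members that differed between the lines under siControl: difference in log2(FPKM + 1), PANC-1 minus MiaPaCa2 (points, bars are standard errors), with the complex in brackets. The values run from -1.55 for NDUFV3 to 1.68 for MT-ND6, and mitochondrial genes (orange) stand at both ends.

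The difference between the lines in the response to each siRNA was tested as an interaction, coded as the PANC-1 minus the MiaPaCa2 log2 fold change. It was called for 5 members after siDDX60L (9.98% of all genes), 15 after siMYEOV (15.4%), 13 after siKCNN4 (15.2%) and 4 after siS100A16 (11.8%). After siMYEOV 14 of the 15 were lower in PANC-1, and after siKCNN4 11 of 13. All genes leaned the same way, with 578 higher and 1127 lower after siMYEOV and 502 and 1187 after siKCNN4. Under median of ratios scaling the siMYEOV split became 5 higher and 6 lower, the siDDX60L split went from 3 and 2 to 2 and 3, and that of siS100A16 from 2 and 2 to 0 and 4, while that of siKCNN4 went from 2 and 11 to 2 and 8. The shift of the all-gene median was 0.11 for the siKCNN4 interaction.

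NDUFA3, an accessory subunit of complex I, differed after siMYEOV (-1.06), siKCNN4 (-0.86) and siDDX60L (-0.79), NDUFB1 and NDUFA1 after siMYEOV and siKCNN4 (-0.84 and -0.75, and -0.67 and -0.74), and ATP5ME, subunit e of ATP synthase, after the same siRNAs (-0.84 and -0.74). UQCR10 differed after siKCNN4 (-0.70), siDDX60L (-0.63) and siMYEOV (-0.54). NDUFB8 and NDUFB4 went the other way, higher in PANC-1, with 0.73 and 0.68 after siKCNN4. The largest difference was that of MT-ATP6 after siKCNN4 (-2.16). ATP5MF and COX8A after siKCNN4 and COX6A1 after siMYEOV, the falls called in both lines, differed between the lines by -0.10 ± 0.13 (limma adjusted p = 0.60), -0.34 ± 0.08 (0.0022) and 0.44 ± 0.11 (0.0037), all under the fold threshold. The siMYEOV differences of NDUFA1 and UQCR10 were each lost without MiaPaCa2 siControl replicate 3 or PANC-1 siMYEOV replicate 1 (-0.60 to -0.45), and the siKCNN4 difference of ATP5ME without MiaPaCa2 siControl replicate 3 or siKCNN4 replicate 2 or PANC-1 siControl replicate 3 or siKCNN4 replicate 1 (-0.71 to -0.63).

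Seed matches of the printed siRNA strands were counted over the full length of the annotated protein-coding transcripts of the members, a match in any transcript sufficing. The shares were not adjusted for transcript length or for the number of transcripts of a gene. The complement of the siMYEOV guide seed, AAGTTCA, occurs in 11 of 87 nuclear members (12.6%), beside 28.0% of 19833 protein-coding genes. UQCRH, at -0.34 in MiaPaCa2 (not called) and lower in PANC-1, and UQCRHL, at 0.05 in MiaPaCa2 (not called) and lower in PANC-1, hold it, and so does ATP5MC2, which was called higher after siMYEOV in MiaPaCa2. In COX6A1 it was not found. That gene is among the 20 members (23.0%, beside 31.5% of genes) with TGTCCTC, the complement of the seed of the other strand. SDHA, COX6B1 and COX7C also hold TGTCCTC and were called higher after siMYEOV in MiaPaCa2. The median log2 fold change after siMYEOV was 0.27 in MiaPaCa2 and 0.09 in PANC-1 with TGTCCTC, and 0.42 and 0.18 without it. After siMYEOV the members with the guide match had a median log2 fold change of 0.19 in MiaPaCa2 and -0.10 in PANC-1, and those without it 0.42 and 0.19, given without a test. For siDDX60L the guide match CGAGTCA is in 3 members (3.45%, beside 7.08% of genes), whose median after siDDX60L was 0.27 in MiaPaCa2 and 0.36 in PANC-1, beside 0.25 and 0.22 without it. A match is a description of letters and not evidence of binding.

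Of 4 promoters looked at among members that rose in both lines, those of NDUFA8 and ATP5PB held none of the searched letters complete before the start, and those of SDHB and ATP5MD are shown, from RefSeq on GRCh38.p14, as the 250 bases before the annotated start, 5′ to 3′ on the strand of the gene. Capitals mark the ETS family letters CCGGAAG on either strand and the letters AAGGTCA bound by oestrogen-related receptors, both classes known as regulators of respiratory genes.
SDHB, chr1:17054033-17054282, minus strand: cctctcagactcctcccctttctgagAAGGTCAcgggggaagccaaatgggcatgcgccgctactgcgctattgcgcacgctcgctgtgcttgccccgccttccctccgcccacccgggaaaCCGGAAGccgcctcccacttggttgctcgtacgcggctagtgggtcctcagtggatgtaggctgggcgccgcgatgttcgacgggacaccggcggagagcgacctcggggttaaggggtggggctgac
ATP5MD, chr10:103396476-103396725, minus strand: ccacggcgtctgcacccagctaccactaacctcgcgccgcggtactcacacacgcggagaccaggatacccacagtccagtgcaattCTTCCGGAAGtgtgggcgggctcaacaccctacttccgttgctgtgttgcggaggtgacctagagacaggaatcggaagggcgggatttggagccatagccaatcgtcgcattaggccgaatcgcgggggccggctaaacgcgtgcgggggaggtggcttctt

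In SDHB the receptor letters begin at position -224 and the ETS letters at -128 from the start, and in ATP5MD an overlapping pair of ETS matches on opposite strands begins at -163 and -160. Of the 87 nuclear members, 70 had an entry among 27305 promoters of 250 bases before to 50 after the start. Over these whole windows and both strands, ETS letters were in 20 members (28.6%, beside 10.7% of all promoters), the NRF1 letters CGCATGCG in 10 (14.3%, 2.19%), the YY1 letters AAGATGGC in 11 (15.7%, 3.03%) and the receptor letters in 9 (12.9%, 3.97%). NDUFA8 holds NRF1 letters that begin at position -3, and COX6A1 and COX8A each hold ETS letters on the reverse strand at -16 and -18. The motif counts say nothing about which factor, if any, acted here.

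Other genes of the pathway, 91 in 8 lists, were followed beside the members, and 90 were tested. Shares of all genes called in the same comparison are given in brackets as higher and lower. After siMYEOV 21 were higher and 4 lower in MiaPaCa2 (16.3% and 10.4%) and 22 and 4 in PANC-1 (14.3% and 15.1%). After siDDX60L the counts were 9 and 5 (8.77% and 7.28%) and 9 and 4 (10.2% and 7.34%). They were 12 and 6 (12.4% and 9.63%) and 21 and 5 (16.5% and 8.94%) after siS100A16. After siKCNN4 they were 8 and 14 (16% and 7.23%) and 3 and 13 (13.8% and 12.9%). Between the lines under siControl 12 were higher in PANC-1 and 29 lower (25.9% and 23.2%), and 12 of the 22 genes of mitochondrial DNA maintenance and transcription were among the latter. The interaction gave 1 higher and 4 lower for siDDX60L, 4 and 9 for siMYEOV, 2 and 7 for siKCNN4 and 4 and 1 for siS100A16. Of all genes, 9.98%, 15.4%, 15.2% and 11.8% were called in either direction for these siRNAs in turn.

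Among 20 assembly factors of complex IV, 10 rose and 2 fell after siMYEOV in MiaPaCa2 and 7 rose and 0 fell in PANC-1, where 16.3% and 14.3% of all genes were higher and 10.4% and 15.1% lower. PET117 (1.27 ± 0.25 and 1.13 ± 0.27) and COX17, a copper chaperone (0.98 ± 0.10 and 0.76 ± 0.06), were among these rises. COX20, which helps to assemble the subunit MT-CO2, fell after siKCNN4 in both lines (-1.71 ± 0.07 and -1.39 ± 0.07), and so did COA4 (-0.77 ± 0.07 and -1.06 ± 0.05), beside the fall of COX8A. COX10, needed for haem A, fell after siS100A16 in both lines (-1.20 ± 0.06 and -0.58 ± 0.08).

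Of 13 assembly factors of complex I, 2 rose after siMYEOV in MiaPaCa2 and 3 in PANC-1, with 0 falls (all genes 16.3% and 14.3% higher, 10.4% and 15.1% lower). After siKCNN4 NUBPL rose (1.01 ± 0.08 and 0.64 ± 0.11) while TMEM126B fell (-0.94 ± 0.10 and -0.54 ± 0.08). Among the mobile carriers, CYCS, cytochrome c, rose after siS100A16 in both lines (1.07 ± 0.11 and 0.94 ± 0.06). ATPAF1, an assembly factor of ATP synthase, fell after siMYEOV (-1.04 ± 0.14 and -0.81 ± 0.13) and siS100A16 (-1.28 ± 0.14 and -0.82 ± 0.13).

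Genes of mitochondrial DNA maintenance and transcription gave 5 falls of 22 after siKCNN4 in MiaPaCa2 and 4 in PANC-1, with 0 rises, where 7.23% and 12.9% of all genes were lower. TFB2M, a transcription factor of the mitochondrial polymerase, and LRPPRC, which stabilises mitochondrial mRNAs, rose after siS100A16 in both lines (TFB2M 0.88 ± 0.07 and 0.88 ± 0.06, LRPPRC 0.91 ± 0.13 and 0.86 ± 0.15), beside mitochondrial medians of -0.08 and -0.09. POLRMT, the polymerase itself, fell after siKCNN4 in PANC-1 (-0.63 ± 0.05). Among 12 nuclear regulators, HIF1A, which turns metabolism toward glycolysis under hypoxia, fell after siS100A16 (-1.38 ± 0.05 and -1.44 ± 0.04), siMYEOV (-1.13 ± 0.05 and -0.68 ± 0.04) and, in MiaPaCa2, siDDX60L (-0.69 ± 0.05) and siKCNN4 (-0.61 ± 0.05).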

How the data were processed

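The deposited values were FPKM per gene and library, made by the authors. TopHat2 2.0.12 and GRCh37 stand in the processing notes of the submitters. The RNA extraction and library kits differ between the labels (Trizol, a TruSeq kit) and the study's methods (a column kit, a stranded kit), which was not resolved. Whether strand was used in the FPKM is not given in the sources used here. Tests were run with limma 3.58.1 in R 4.3.3 on log2(FPKM + 1), with a mean-variance trend, over genes whose mean reached 1 FPKM in the 15 libraries of a line (11875 genes in MiaPaCa2, 12513 in PANC-1). The lines and interactions used one fit of all 30 libraries (11084 genes passing in both). The scripts were tested on simulated data. Alternatives were a pseudocount of 0.1, no filter, median of ratios and nuclear total scaling, a replicate block, and leaving out each library. Adding a pseudocount understates the change of low genes. The members, the gene lists and the rule for named genes were chosen with earlier results of these data known. Named were the 4 largest called rises and falls of each siRNA comparison, members called alike in both lines or after at least 3 siRNAs in a line, the 13 mitochondrial mRNAs, isoforms with their counterparts, the 6 largest differences between the lines in each direction, called interactions, the targets, and up to 2 called genes per list of other pathway genes in a comparison. The values of 1 member that is in the counts are not reported here. Seed matches used GENCODE transcripts lifted to GRCh37.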

Additional observations from a re-analysis of the deposited data

Results flagged for a closer look

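Members whose response differed between the lines, by the interaction test in limma at an adjusted p below 0.05 and a size of at least 0.5, are given as the PANC-1 minus the MiaPaCa2 log2 fold change. After siDDX60L these were NDUFA3 (-0.79), UQCR10 (-0.63), NDUFB8 (0.53), NDUFB4 (0.57) and MT-CO1 (0.67). After siMYEOV the members given here were NDUFA3 (-1.06), ATP5ME (-0.84), NDUFB1 (-0.84), NDUFA1 (-0.67), MT-ND6 (-0.66), ATP5MC2 (-0.63), ATP5MG (-0.57), UQCR10 (-0.54), ATP5IF1 (-0.53), NDUFA2 (-0.53), ATP5MPL (-0.53), ATP5MF (-0.51), UQCRB (-0.51) and MT-ND2 (0.54).

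After siKCNN4 the members were MT-ATP6 (-2.16), NDUFA3 (-0.86), NDUFB1 (-0.75), NDUFA1 (-0.74), ATP5ME (-0.74), UQCR10 (-0.70), NDUFA13 (-0.68), ATP5IF1 (-0.67), NDUFB10 (-0.66), ATP5MC2 (-0.64), ATP5MG (-0.57), NDUFB4 (0.68) and NDUFB8 (0.73). After siS100A16 they were MT-ND6 (-0.69), ATP5MG (-0.58), ATP5F1C (0.53) and NDUFB8 (0.57). The MiaPaCa2 and PANC-1 effects of one siRNA come from separate libraries, while the siRNAs of a line share siControl, so the repeated flags of NDUFA3, UQCR10, NDUFB8 and ATP5MG rest in part on the same 6 siControl libraries.

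Single libraries decided some of these differences. After siMYEOV, leaving out PANC-1 siMYEOV replicate 1 ended the calls of ATP5IF1, ATP5MF, ATP5MPL, MT-ND2, NDUFA1, NDUFA2, UQCR10 and UQCRB, and other libraries also ended some of them (MiaPaCa2 siControl replicates 1, 2 and 3, siMYEOV replicates 2 and 3, and PANC-1 siControl replicates 1 and 2), with values of -0.60 to -0.41 for those lower in PANC-1 and 0.50 for MT-ND2. The ATP5MG calls after siMYEOV and siKCNN4 were lost without MiaPaCa2 siControl replicate 2, at -0.49 in each. For siKCNN4, the NDUFB10 call was lost without MiaPaCa2 siKCNN4 replicate 1 or 2, PANC-1 siControl replicate 2 or PANC-1 siKCNN4 replicate 1 or 2 (-0.58 to -0.53). The NDUFB8 calls were lost without any of 8 libraries after siDDX60L (0.42 to 0.51) and any of 7 after siS100A16 (0.51 to 0.55), the NDUFB4 call after siDDX60L without MiaPaCa2 siDDX60L replicate 3 or PANC-1 siDDX60L replicate 1 (0.49 to 0.50), and the ATP5F1C call after siS100A16 without MiaPaCa2 siS100A16 replicate 1 or PANC-1 siControl replicate 2 (0.48 to 0.50).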

How the results depend on the processing

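Most counts of members stayed within 1.5 times of the reported ones under the alternatives run. Exceptions with other settings were siKCNN4 in MiaPaCa2 with median of ratios scaling (2 higher and 5 lower), siS100A16 in MiaPaCa2 with a pseudocount of 0.1 (5 higher), and siS100A16 in PANC-1 (3 lower with no filter, 9 lower with median of ratios scaling). By direction, median of ratios scaling also moved the siMYEOV differences between lines from 1 higher and 14 lower to 5 and 6, those of siDDX60L from 3 and 2 to 2 and 3, and those of siS100A16 from 2 and 2 to 0 and 4. On leaving out one library, members higher after siKCNN4 in MiaPaCa2 ranged from 5 to 10 (10 without siKCNN4 replicate 3), those higher after siS100A16 there from 3 to 6 (5 without replicate 1, 6 without replicate 3) and lower from 1 to 4 (4 without replicate 2, 1 without replicate 3). The siMYEOV interactions ranged from 8 (without PANC-1 siMYEOV replicate 1) to 18 and those of siS100A16 from 2 (without MiaPaCa2 siS100A16 replicate 1) to 5. Of 138 named results, all kept their direction, and 40 lost their call in at least one fit without a library, 30 with median of ratios scaling, 9 with nuclear total scaling, 7 with no filter and 0 with the other pseudocount. With median of ratios scaling the losses included the 3 siRNA calls of ATP5IF1, SDHB after siDDX60L in PANC-1 (0.43) and NDUFB6 and NDUFB5 after siKCNN4 in MiaPaCa2 (0.37 and 0.43). The causes were not tested. The deviations of same-numbered libraries had a median correlation of 0.00078 in MiaPaCa2 and 0.0072 in PANC-1. Of 30 same-numbered pairs in each line, 0 in MiaPaCa2 and 4 in PANC-1 exceeded 0.1, with a highest value of 0.16. The fit with a replicate block ended 0 of these calls and gave 26 higher members after siMYEOV in MiaPaCa2, as without it. FPKM hold no absolute depth, so the precision of low values is unknown.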
